A study of Homo sapiens with 3 samples.

Results

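CDKN1A, MDM2, BTG2, GADD45A and SESN1, 5 textbook target genes of the transcription factor p53, were examined in 3 deposited lists of chromatin immunoprecipitation sequencing (ChIP-seq) regions from LNCaP cells, an established human prostate carcinoma line. All regions whose centre lay in 1 of 5 hg19 windows around these genes were taken: chr6:36634000-36661000 for CDKN1A, chr12:69197000-69245000 for MDM2, chr1:203269000-203284000 for BTG2, chr1:68145000-68159000 for GADD45A and chr6:109302000-109421000 for SESN1. The windows held 29 of the 59983 regions of the 3 lists. Of these, 6 were CK2α regions, 11 were RNA polymerase II (Pol II) regions from cells with vehicle and 12 were Pol II regions from cells with inhibitor. The window edges decided little: the innermost edge case was a region 1.08 kb inside the CDKN1A window, and the nearest region left out lay 2.02 kb beyond the BTG2 window.

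Each list came from 1 library. For the first, the antibody recognised CK2α, which carries the kinase activity of the CK2 holoenzyme, and the cells had received 100 nM dihydrotestosterone (DHT), a potent natural ligand of the androgen receptor. Its treatment label gives 2.5 hours of DHT, while its protocol gives 90 min. The vehicle Pol II library came from cells kept with DMSO for 2.5 hours, the label stating 25 μM for the vehicle, with 100 nM DHT present for the last 1.5 hours. The inhibitor Pol II library came from cells treated on the same schedule with 25 μM of the CK2 inhibitor TBBz, a benzimidazole bearing bromine atoms. All cells were LNCaP of passages 40 to 45, held in medium with 5% charcoal-stripped serum for 3 days before hormone. Both Pol II libraries carry a source label that mentions TBBz, and they were told apart by their treatment labels. Tag totals were 19021404 (CK2α), 15466579 (DMSO) and 22345614 (TBBz), the TBBz library being the deepest. As each group had a single library, the spread between replicates is unknown and groups were compared without a test.

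In cells with DNA damage, p53 binds short paired half-sites near its target genes and raises their transcription. LNCaP cells carry wild-type p53, and none of the labelled treatments is a DNA-damaging agent. CDKN1A encodes p21, an inhibitor of cyclin-dependent kinases that halts the cell cycle. MDM2 encodes the ubiquitin ligase that marks p53 for degradation and so closes a feedback loop; besides its outer promoter it has an inner promoter in its first intron that responds to p53. BTG2 encodes an antiproliferative protein that promotes deadenylation of mRNA. GADD45A encodes a small stress protein that acts in growth arrest and DNA repair, and SESN1 encodes sestrin 1, which restrains mTORC1 signalling and is transcribed from separate starts. At many genes Pol II pauses shortly after the start before it elongates. CK2 phosphorylates many nuclear proteins, and the title of the series places it in transcriptional elongation.

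The sequences before the starts of MDM2 and SESN1 are shown because both genes have more than 1 start and Pol II regions stood at more than 1 of them. They are RefSeq sequences of GRCh38.p14, on the coding strand, and were matched to the genes by symbol. Capitals mark 20-base stretches that match 2 adjacent p53 half-sites with no spacer and at most 3 mismatches; the motif reads alike on both strands. The MDM2 lines give the 250 bases before the outer and the inner start, the first of each of 2 close pairs in the RefSeq table; the inner start lies 845 bp after the outer one. The SESN1 line gives 30 bases around the only match in the 250 bases before any of its 3 listed starts. This match begins 49 bases before the last of them.
MDM2 outer start: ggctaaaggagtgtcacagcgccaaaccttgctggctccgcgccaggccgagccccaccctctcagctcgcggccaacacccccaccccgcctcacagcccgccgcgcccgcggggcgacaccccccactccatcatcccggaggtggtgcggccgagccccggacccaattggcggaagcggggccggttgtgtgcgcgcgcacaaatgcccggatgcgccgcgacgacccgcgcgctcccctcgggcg
MDM2 inner start: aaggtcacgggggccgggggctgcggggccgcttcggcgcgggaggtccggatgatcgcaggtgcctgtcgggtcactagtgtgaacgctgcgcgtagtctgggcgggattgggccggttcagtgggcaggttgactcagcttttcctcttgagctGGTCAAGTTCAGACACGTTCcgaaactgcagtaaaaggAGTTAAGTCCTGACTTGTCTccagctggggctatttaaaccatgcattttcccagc
SESN1 last start, site: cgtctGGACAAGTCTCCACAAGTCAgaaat
The MDM2 inner start had 2 such stretches, which began 94 and 56 bases before it with 2 and 3 mismatches. The outer start had 0. Of 34788 distinct RefSeq windows of 250 bases before a start, 4.38% held a match, so a match is uncommon but not a mark of p53 targets. A match here is a likeness of letters, and p53 binding was not measured.

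The upstream sequences of CDKN1A, BTG2 and the second SESN1 start are shown as examples of starts with Pol II regions of both lists. Within the bases shown, none of them had paired p53 half-sites by the rule above. Half-sites with a spacer or farther upstream were not searched for, so their absence from these genes is not shown. Capitals mark GGGCGG on either strand, overlapping copies included, a sequence known as the GC box. They numbered 4 for CDKN1A, 3 for BTG2 and 5 for the second SESN1 start. Of the windows not shown in this way, the outer SESN1 start had 7, the last SESN1 start 1, the MDM2 outer start 0 (1 from the paired start 5 bp on) and the MDM2 inner start 1. Of all upstream windows 42.6% held at least 1. TATAAA, searched on both strands, was in none of the windows of CDKN1A, MDM2, BTG2 and SESN1 and in 10.8% of all windows.
CDKN1A start: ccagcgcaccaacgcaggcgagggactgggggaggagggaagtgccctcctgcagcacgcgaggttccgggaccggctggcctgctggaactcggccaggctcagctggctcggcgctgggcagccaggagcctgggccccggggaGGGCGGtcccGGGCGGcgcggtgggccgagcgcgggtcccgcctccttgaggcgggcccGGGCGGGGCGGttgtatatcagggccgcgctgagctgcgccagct
BTG2 start: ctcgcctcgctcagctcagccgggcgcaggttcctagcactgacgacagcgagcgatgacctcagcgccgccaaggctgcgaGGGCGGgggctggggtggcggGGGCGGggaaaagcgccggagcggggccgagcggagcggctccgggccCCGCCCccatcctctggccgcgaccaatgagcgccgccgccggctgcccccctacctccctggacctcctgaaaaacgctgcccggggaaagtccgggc
SESN1 second start: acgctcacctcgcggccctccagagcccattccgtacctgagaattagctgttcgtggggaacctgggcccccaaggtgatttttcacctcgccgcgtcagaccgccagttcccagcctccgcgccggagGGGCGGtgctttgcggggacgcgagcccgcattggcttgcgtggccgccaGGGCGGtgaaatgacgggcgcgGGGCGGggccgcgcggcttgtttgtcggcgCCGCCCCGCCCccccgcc
The second SESN1 start lies 85294 bp after the first, and is called the inner start of SESN1 here. The upstream sequence of GADD45A was not analysed here.

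Pol II was called at the start of every one of the 5 genes, with DMSO and with TBBz alike. A region counted as being at a start when its centre lay within 1 kb of an outer or inner start. By this rule 7 of 11 DMSO regions and 7 of 12 TBBz regions were at starts, and each of these 7 had its partner in the other list. CK2α was at starts in 5 of 6 regions, and in 3 of 6 when the distance was limited to 500 bp, because the CDKN1A and GADD45A regions were centred 0.6 and 0.7 kb into the gene. The shares of all regions that lie at gene starts or ends were not computed for any list, since no hg19 annotation was used, so these counts have no background. At starts, CK2α was called at CDKN1A, MDM2, GADD45A and SESN1, and not at BTG2. Away from the starts, the 3 DMSO regions without a TBBz partner lay late in MDM2 and SESN1 or past the end of SESN1. The 4 TBBz regions without a DMSO partner lay before CDKN1A, early in BTG2 and in the part of SESN1 that precedes its inner start. Members overlapped the other Pol II list about as often as all regions did. For DMSO it was 72.7% against 73.8%, and for TBBz 66.7% against 65.0%. The places of so few unshared regions are given as description only.

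**Figure D1:**
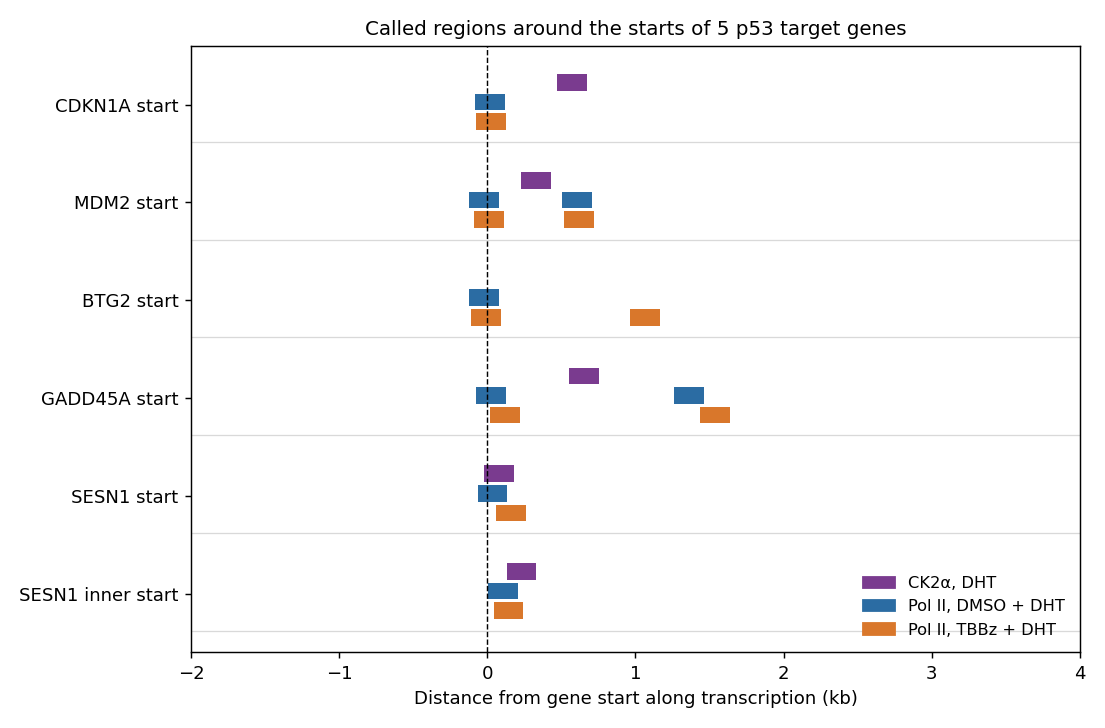
Called regions around the 5 gene starts and the inner start of SESN1, as bars of their own width (201 bp) against the distance from the start along transcription in kb; the list is given by colour. In every row a DMSO and a TBBz region lie within 0.2 kb of the start. Further Pol II regions lie 0.6 kb after it at MDM2 (both lists) and 1.1 kb after it at BTG2 (TBBz only). At GADD45A they lie 1.4 kb (DMSO) and 1.5 kb (TBBz) after it. The TBBz region at the SESN1 start is centred 0.2 kb after that start. No CK2α region was called at BTG2, and CK2α at CDKN1A, MDM2 and GADD45A lies after the first Pol II region.

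The regions in the windows were shared between the Pol II lists about as often as regions elsewhere. Of the 11 DMSO members, 8 shared at least 1 bp with a TBBz region, or 72.7% (exact 95% binomial interval 39 to 94%, counting error only), and over the whole DMSO list it was 73.8%. Of the 12 TBBz regions, 8 overlapped a DMSO region, or 66.7% (34.9 to 90.1%), against 65.0% of all TBBz regions. A site without any partner centre within 2 kb was found 3 times in each list, which is 27.3% of the DMSO members (6.02 to 61%) against 13.9% of that list and 25% of the TBBz members (5.49 to 57.2%) against 21.1%. These intervals include the shares of the whole lists. With so few regions, only large departures from the whole lists would be seen.

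BTG2 had the Pol II region with the earliest place of all members. The DMSO region, chr1:203274577-203274777, stood at place 220 of 21819, which is 1.01% into the list. The TBBz region, chr1:203274590-203274790, stood at place 572 of 24782, or 2.31%. The score column is constant, so the order of each list was the only measure of standing; it may follow strength, which no value here tests, and places of lists of unequal length were not compared as a change. Both regions were centred on the start to within 0.1 kb and overlapped by 188 bp. A further TBBz region, chr1:203275663-203275863 at place 11511, lay 1.1 kb into the gene, 1073 bp after the first, and its nearest DMSO centre was 1086 bp away. The nearest CK2α centre to the DMSO start region was 21624 bp away, outside the window.

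CDKN1A was the gene whose standing differed most between the lists. Its DMSO start region, chr6:36646416-36646616, stood at place 2688 of 21819 (12.3%), and its TBBz start region, chr6:36646424-36646624, at place 7662 of 24782 (30.9%). The centres were 8 bp apart, the smallest distance of all member pairs. To set the lists on 1 scale, the 16112 DMSO regions with a TBBz overlap were ranked among themselves in both lists. There the CDKN1A start was number 2462 with DMSO and number 6609 with TBBz, and 3.69% of all shared pairs stood at least as much later with TBBz. That share is over pairs of every standing, and pairs late in the DMSO order had less room to stand later. CDKN1A was singled out after its values were seen, as the most displaced in order of 8 pairs. The CK2α list had CDKN1A earliest of all member genes: chr6:36646972-36647172 stood at place 596 of 13382 (4.45%). That region was centred 0.6 kb after the start, 556 bp past the DMSO centre and 548 bp past the TBBz centre, and overlapped neither. The only other member region, chr6:36634976-36635176, was a TBBz region 11.4 kb before the start at place 23364, or 94.3% into its list. Its nearest DMSO centre was 11440 bp away.

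MDM2 carried a pair of Pol II regions at its start in both lists. With DMSO, chr12:69201876-69202076 lay on the outer start at place 2793 (12.8%), and chr12:69202504-69202704 lay 0.6 kb into the gene at place 8927 (40.9%). With TBBz, chr12:69201913-69202113 stood at place 2028 (8.18%) and chr12:69202517-69202717 at place 8392 (33.9%). The centres of the pair were 628 bp apart with DMSO and 604 bp with TBBz, and the second lay about 0.2 kb before the inner start, whose sequence with the paired half-sites is given above. The CK2α region, chr12:69202229-69202429 at place 1636 of its list (12.2%), stood between both Pol II regions of either list. It was 353 bp past the first DMSO centre and 275 bp short of the second, with no overlap. In the order of the shared pairs, the outer MDM2 region was number 2558 with DMSO and number 1845 with TBBz. CDKN1A stood just before MDM2 with DMSO and far behind it with TBBz.

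No region of any list was called between the second MDM2 Pol II region and the last 1 kb of the gene. At the end, 0.6 kb before it, the DMSO list had chr12:69238579-69238779 at place 19535, or 89.5% into the list. Its nearest TBBz centre was 36062 bp away, at the start of the gene. The end used here is that of the standard hg19 model. The gene span that RefSeq lists on GRCh38.p14 is longer, at 42515 bp, and by that length the DMSO region lay 5.8 kb before the end, inside the gene.

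GADD45A also had 2 Pol II regions in each list. The DMSO start region was chr1:68150826-68151026 at place 1957 (8.97%), and the TBBz start region was chr1:68150919-68151119 at place 3726 (15%). The second regions lay in the short gene body, at chr1:68152159-68152359 with DMSO (place 11045, 50.6%) and at chr1:68152335-68152535 with TBBz (place 10838, 43.7%). They were centred 1.4 and 1.5 kb after the start and overlapped by only 25 bp. The GADD45A CK2α region, chr1:68151453-68151653 at place 3893 (29.1%), stood in the gap, 627 bp past the first DMSO centre and 706 bp short of the second. Its arrangement was thus that of MDM2, with CK2α between 2 Pol II regions and overlapping none.

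Neighbouring Pol II regions of this kind were found at 2 genes with DMSO and at 3 with TBBz, the further one being BTG2. Of the DMSO members 4 of 11 had another DMSO centre within 1.5 kb, or 36.4% (10.9 to 69.2%), against 17.6% of the whole list. Of the TBBz members 6 of 12 had one, or 50% (21.1 to 78.9%), against 21.5%. Both intervals include the share of the whole list, but they take regions as independent. The neighbours here are each other's, so each pair is counted from both sides and the intervals are too narrow. The peak caller allowed no centres closer than 500 bp, so closer neighbours could not appear.

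SESN1, which is transcribed towards lower coordinates, had Pol II and CK2α at its outer start and at its inner start. The last listed start, 564 bp after the inner one, had no separate region. The regions called at the inner start were centred 0.5 kb (DMSO), 0.4 kb (TBBz) and 0.3 kb (CK2α) before it. They thus lay within 1 kb of the last start as well. The peak caller allowed no centres closer than 500 bp, so a separate region centred on the last start could hardly be called. Its absence therefore does not tell the 2 starts apart. At the inner start, the DMSO region chr6:109330595-109330795 stood at place 901 (4.13%), the TBBz region chr6:109330558-109330758 at place 1634 (6.59%) and the CK2α region chr6:109330469-109330669 at place 2494 (18.6%). At the outer start, the DMSO region chr6:109415865-109416065 stood at place 3597 (16.5%), the TBBz region chr6:109415739-109415939 at place 6255 (25.2%) and the CK2α region chr6:109415822-109416022 at place 3396 (25.4%). In all 3 lists the inner start thus stood earlier than the outer one. The DMSO centres were 85270 bp apart, against 85294 bp between the RefSeq starts. SESN1 was the only member gene where CK2α overlapped Pol II: it shared 75 bp with DMSO and 112 bp with TBBz at the inner start, and 158 bp and 118 bp at the outer start.

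Between and beyond the SESN1 starts no Pol II region was shared. With TBBz, chr6:109355848-109356048 (place 20375, 82.2%) and chr6:109341121-109341321 (place 18695, 75.4%) lay 60.1 and 74.8 kb after the outer start, before the inner one. Their nearest DMSO centres were 25253 and 10526 bp away. With DMSO, chr6:109319690-109319890 (place 19228, 88.1%) lay 96.2 kb after the outer start, past the inner one, and its nearest TBBz centre was 10868 bp away. A second DMSO region, chr6:109305021-109305221, lay 2.5 kb past the gene end at place 11317 (51.9%), with the nearest TBBz centre 25537 bp away. By the RefSeq gene length of 110538 bp it lay 0.3 kb past the end. The remaining CK2α member, chr6:109340430-109340630, was in this stretch too, 75.5 kb after the outer start and late in its list at place 12850 (96%). It lay 691 bp from the TBBz region at 74.8 kb and 9835 bp from any DMSO region, without overlap.

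**Figure D2:**
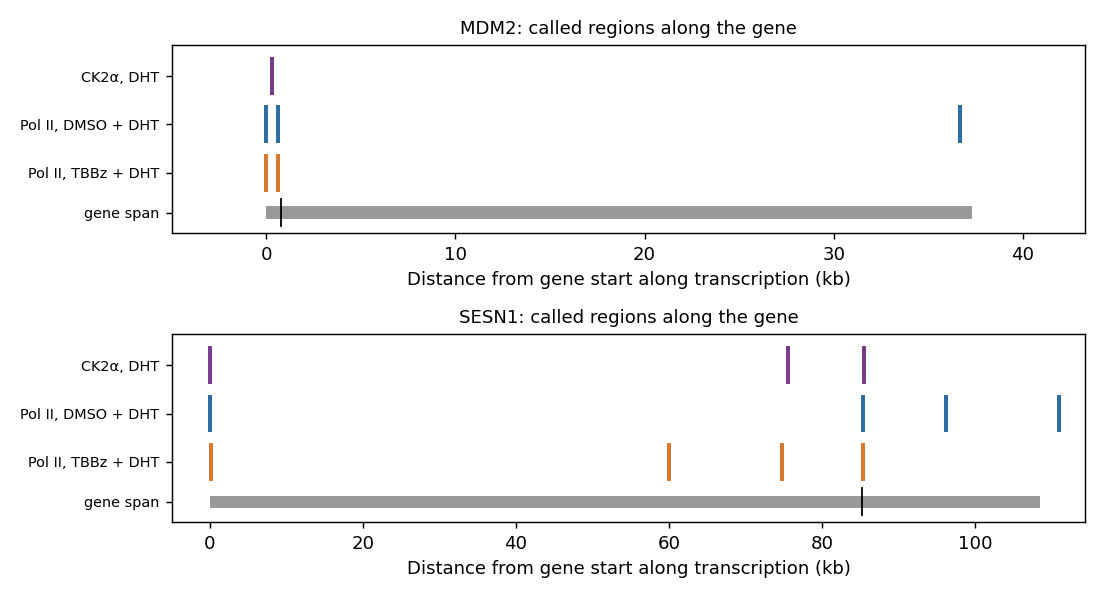
Called regions along MDM2 and SESN1 against the distance from the outer start along transcription in kb, 1 row per list as vertical marks; the grey bar is the gene span used and the black tick is the inner start. The DMSO marks at 36.7 kb of MDM2 and at 96.2 and 110.9 kb of SESN1 have no TBBz counterpart, and the TBBz marks at 60.1 and 74.8 kb of SESN1 have no DMSO counterpart.

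Over the 5 genes, regions at or past a gene end numbered 2 with DMSO, 0 with TBBz and 0 for CK2α. By the RefSeq gene lengths the DMSO number was 1. No share of all regions at gene ends was computed to set beside these few. Regions without an overlapping partner were about as common here as in the whole Pol II lists. Regions with no partner centre within 2 kb were 27.3% of the DMSO members (6.02 to 61%) against 13.9% of that list. With TBBz they were 25% against 21.1%. All 7 unshared Pol II members except the BTG2 region at place 11511 and the SESN1 region at place 11317 stood past 75% of their list. The lists were also called so that a site had to stand 4-fold above the surrounding 10 kb. For this, 25346 of 47165 candidates with DMSO, 13517 of 38299 with TBBz and 42856 of 56238 for CK2α were removed. Tags in regions were 6.79% of all tags with DMSO, 12.6% with TBBz and 1.65% for CK2α. A site missing from a list can therefore still hold Pol II or CK2α, and this includes CK2α at BTG2. The part of depth, of the share of tags in regions and of this filter in the 7 unshared regions was not tested.

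**Figure D3:**
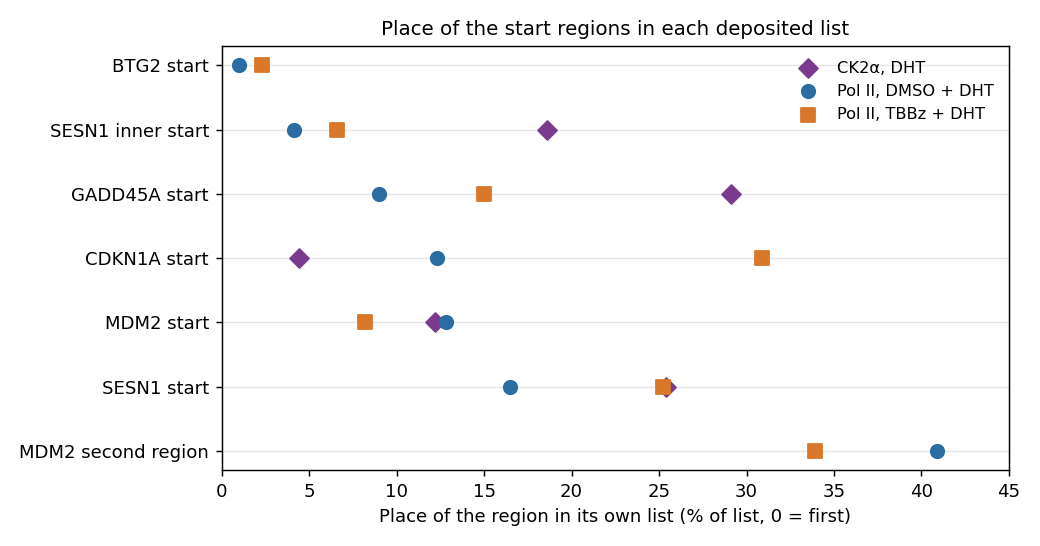
Place of each start region in its own list, as percent of the list (0 is the first region), 1 row per start and 1 marker per list. The BTG2 start stands at 1.01% and 2.31% of the Pol II lists, and CDKN1A stands at 4.45% of the CK2α list, 12.3% of the DMSO list and 30.9% of the TBBz list.

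The order of the starts within a list differed between CK2α and Pol II. From early to late, the DMSO list had BTG2, the inner start of SESN1, GADD45A, CDKN1A, MDM2 and the outer start of SESN1, followed by the second MDM2 region. The TBBz list had BTG2, the inner start of SESN1, MDM2, GADD45A, the outer start of SESN1 and CDKN1A, again with the second MDM2 region last. BTG2 and the inner start of SESN1 thus led both Pol II lists. The CK2α list had CDKN1A, MDM2, the inner and the outer start of SESN1, and GADD45A, and lacked BTG2, the gene that led for Pol II. Among the shared pairs, the BTG2 start was number 211 with DMSO and number 532 with TBBz, and the GADD45A start number 1808 and number 3317. At least as much later with TBBz as these stood 41.8% and 21.6% of all pairs, and for the outer start of SESN1 it was 14%. Differences of these sizes were thus not rare over shared pairs of every standing. Pairs of like standing were not compared among themselves.

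Shared Pol II regions lay a little farther along the gene with TBBz in every member pair. The displacement of the TBBz centre from the DMSO centre, counted along transcription, was 8 bp at CDKN1A, 13 bp at BTG2, 37 bp at the outer and 13 bp at the second MDM2 region, 93 bp at the GADD45A start and 176 bp in its body, and 126 bp at the outer and 37 bp at the inner start of SESN1. All 8 were downstream, on the 4 genes read towards higher coordinates and on SESN1, which is read towards lower ones. Pairs of 1 gene are not independent of each other, and the direction along transcription was not determined for other genes, so how common it is over the genome is not known here. In plain coordinates the TBBz centre lay higher in 50.4% of all 16112 pairs and lower in 47.5%. Over all pairs the median distance was 19 bp (quartiles 8 and 43 bp), and over the members it was 37 bp. The GADD45A body pair and the outer SESN1 pair were displaced as few pairs were: 1.53% and 5.14% of all pairs lay at least as far apart. Both were singled out after the values were seen, as the most displaced of the 8. Pairs had to overlap by at least 1 bp, so the distances end at 200 bp and larger displacements were left out. CDKN1A, BTG2 and the second MDM2 region lay closer than the median.

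**Figure D4:**
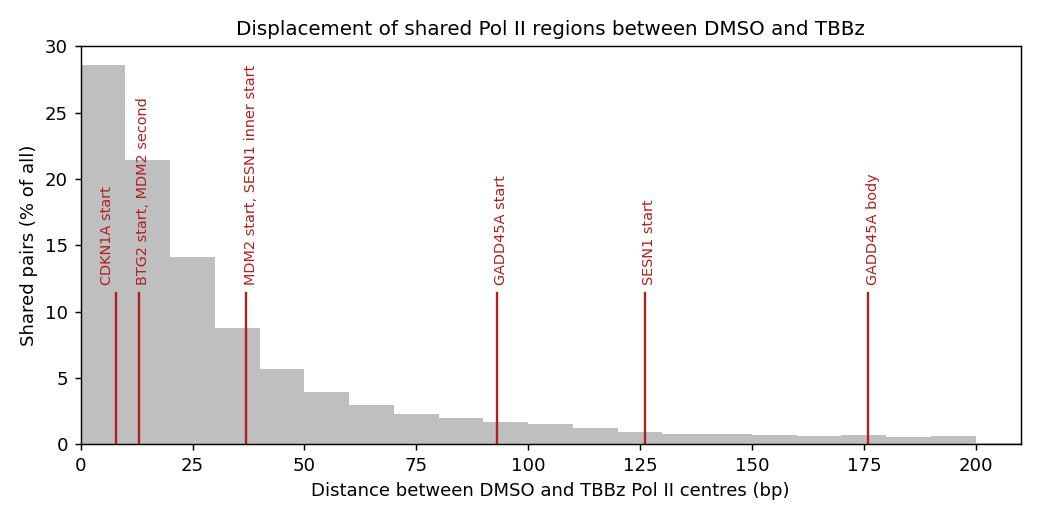
Distance between the DMSO and TBBz centres of shared Pol II regions in bp, as percent of all 16112 pairs in bins of equal width (grey), with the 8 member pairs as red lines. The members run from 8 bp at CDKN1A to 176 bp in the GADD45A body.

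CK2α at the starts lay past the first Pol II centre of the DMSO list in 5 of 5 cases, by 43 bp at the outer and 126 bp at the inner start of SESN1, 353 bp at MDM2, 556 bp at CDKN1A and 627 bp at GADD45A. At MDM2 this depends on taking the first centre, since the nearest DMSO centre was the second, which lay 275 bp past CK2α. The direction was not determined for CK2α at other genes, so 5 of 5 has no background. Against the TBBz centres the outer start of SESN1 was the exception, with CK2α 83 bp before Pol II. CK2α overlapped DMSO Pol II in 2 of 6 regions, or 33.3% (4.33 to 77.7%), against 36.8% of all CK2α regions, and overlapped TBBz Pol II in 2 of 6, against 36.0%. It lay within 1 kb of DMSO Pol II without overlap in 3 of 6, or 50% (11.8 to 88.2%), against 41.5%. In all, 5 of 6 CK2α members had a DMSO centre within 1 kb, against 78.3% of the list, and 6 of 6 had a TBBz centre within 1 kb, against 77.0%. Among all CK2α regions with a DMSO centre within 1 kb the median distance was 219 bp (quartiles 91 and 390 bp). SESN1 lay on the near side of this median, and the distances at CDKN1A and GADD45A exceeded the upper quartile.

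Seen from Pol II, 7 of 11 DMSO members had a CK2α centre within 1 kb, or 63.6% (30.8 to 89.1%), against 47.5% of the DMSO list. For the TBBz members it was 8 of 12, or 66.7% (34.9 to 90.1%), against 42.2%. Both intervals include the whole-list share, but they take regions as independent. At MDM2 and GADD45A a single CK2α region lies near both neighbouring Pol II regions of each list, and the intervals do not allow for this. CK2α at these genes in TBBz-treated cells was not analysed here. No control library is named in the peak calling, and background shared by the libraries cannot be told apart from binding. Other genes of the p53 pathway were not placed, since no hg19 annotation was used.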

How the data were processed

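CK2α and Pol II were measured by ChIP-seq in LNCaP cells, with 1 library per group. Per the submitters' processing notes, reads were aligned with Bowtie to hg19 and regions were called with HOMER; no version of either is given in the sources used here. The authors called each library on its own, per the file headers, with HOMER's factor style: peaks of 200 bp at least 500 bp apart, a fragment length set to 150 bp, and 0.001 as the false discovery rate. The tag threshold was 12 for CK2α, 11 for DMSO and 13 for TBBz, and candidates under 4-fold over the surrounding 10 kb were removed. The deposited score is 1 for every region, so file order was used.

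Starts were raised by 1 to count from 1. Groups came from the treatment and antibody labels. Gene starts and ends on hg19 were entered by hand from standard gene models to 0.1 kb, not read from an annotation file, so distances to them carry about that error; distances between regions are exact. Every region in the windows was described. The region rule, genes and lists were chosen with earlier results of these data known. Overlap meant at least 1 bp. Intervals are exact (Clopper-Pearson) at 95%, take regions as independent and cover counting error only. RefSeq sequences and gene lengths are those of GRCh38.p14; no coordinates were converted. Overlap and distance functions were tested on simulated data. Scripts ran under Python 3.11.15 with pandas 2.3.3, NumPy 2.4.6, Matplotlib 3.10.9 and SciPy 1.17.1. Alternatives were other overlap rules, the first 50% of each list, equal numbers of Pol II regions, narrower windows, other distances to a start and another gene end.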

Additional observations from a re-analysis of the deposited data

How the results depend on the processing

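Of 30 alternative values, 26 stayed within the interval of the reported share or within 1.5 times the reported count. With the first 50% of each list, 7 of 7 DMSO members overlapped a TBBz region (100%, against 72.7%), and the DMSO members numbered 7 in place of 11; both follow from leaving out late regions. With starts counted within 500 bp, CK2α regions at starts numbered 3 in place of 5, since those of CDKN1A and GADD45A lie farther in. With gene ends from the RefSeq gene length, an alternative added after the data were seen and not applied to CDKN1A, DMSO regions at or past an end numbered 1 in place of 2. An overlap of 50% of the shorter region gave 54.5% for DMSO, 50% for TBBz and 16.7% for CK2α on DMSO Pol II, all inside the reported intervals. No paired analysis was possible because there are no replicates, and none could be left out. The lists hold no tags per region, so the effect of depth late in the lists was not tested.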
